A study of Mus musculus with 20 samples.

Results

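Immediate early genes of mouse gastrocnemius, a calf muscle, were followed in 4 groups of 5 libraries: Fos, Fosb, Jun, Junb, Egr1, Atf3, Ier2, Klf4, Klf6 and Nr4a1. They were chosen by name, as the 10 genes of an expression table of 31618 genes that carry these symbols, and all 10 were among the 9696 genes tested. All libraries came from male C57BL/6N mice. The control group received neither compound. The TM group was treated with tetrathiomolybdate (TM), a copper chelator, the NAC group with N-acetylcysteine (NAC), a thiol antioxidant, and the TM+NAC group with both. Each treated group is labelled 28 days. Dose, route, age and the interval between the last treatment and dissection were not given in these sources. No label states that the numbered libraries of a group are different animals. The p-values therefore describe differences among libraries, which may in part be technical.

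Immediate early genes are transcribed within minutes of a stimulus, before any new protein is made, through transcription factors that are already in place, chiefly serum response factor and CREB. Most encode transcription factors that in turn act on later genes, and both their RNA and their proteins decay fast. In skeletal muscle they are known to respond to contraction, stretch and injury. In these libraries 0 of the 10 members passed the test (edgeR, adjusted p under 0.05) in any of the 7 comparisons made, in which 0% to 0.351% of the tested genes passed. The members varied more between libraries of the same group than most genes did.

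Most members were compact genes, and some short motifs recurred in the promoter windows that were at hand. On GRCm38, 8 of the 10 spanned under 10000 bases, against 26.3% of the tested genes with a coding transcript, and 8 had 4 or fewer exons, against 20.7%. The median span was 5243 bases for the members and 21929.5 for the tested genes. ATTTA forms the core letters of AU-rich elements that mark RNA for fast decay. It occurred in the 3′ UTR at a median of 2.39 matches per kb in the members and 1.20 in the tested genes. Klf4 (1.02), Fosb (0.47) and Ier2 (0) lay below the median of the tested genes, and the other members above it. The longer form TTATTTAWW (W, A or T) was found in 1 of the 10 members, Fos, against 14.8% of the tested genes. Jun (chromosome 4, 95049034 to 95052222, minus strand) is overlapped on the other strand by Junos, so reads of this pair could not be told apart unless counting used strand. Fos lies at chromosome 12, 85473890 to 85477273 on the plus strand, and Fosb at chromosome 7, 19302696 to 19310051 on the minus strand. Ier2 and Junb both lie on the minus strand of chromosome 8, 314055 bases apart.

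RefSeq promoter windows on GRCm38.p6, from 250 bases before the start site to 50 after it, were at hand for 8 members, all but Egr1 and Ier2. Windows were searched on both strands for the full cAMP response element TGACGTCA and its core TGACG (the full element holds the core), the AP-1 site TGANTCA, the TATA box TATAAA, the SP1 box GGGCGG, the EGR site GCGTGGGCG and the CArG box, which serum response factor binds. TGACG, which CREB and ATF factors are known to bind, was found in 6 of the 8 windows, those of Fos, Fosb, Junb, Nr4a1, Atf3 and Klf4, against 20.8% of all 32851 windows of this length. GGGCGG was found in 7 of 8, against 35.7%. TATAAA was found in 2 of 8 (Fos, at -33 to -28, and Junb, at 1 to 6), against 13.6%. The Junb match lies at the start site used here, not before it as in Fos. The CArG box, TGACGTCA, TGANTCA and GCGTGGGCG were found in 0 of 8, against 1.63%, 1.79%, 7.81% and 0.612%. Sites farther than 250 bases upstream and sites with other letters were not searched. A count of 0 of 8 therefore does not show that these genes lack such sites. The shares are over all windows and were not limited to the tested genes, so they do not show a trait particular to the members. A match describes letters of a window and shows no binding.

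The 250 bases before the start site are shown for Fos, Fosb and Junb, which moved together between libraries, and for Nr4a1, the member with the highest level. They run 5′ to 3′ on the strand of the gene, and capitals mark TGACG, its reverse complement CGTCA, or TATAAA. The stretches are chr12:85473640-85473889 (plus strand) for Fos, chr7:19310046-19310295 (minus) for Fosb, chr8:84978749-84978998 (minus) for Junb and chr15:101266596-101266845 (plus) for Nr4a1. The Nr4a1 stretch lies inside the gene as the deposited table gives it (chromosome 15, 101254269 to 101274795), which starts farther upstream. The Junb stretch does not reach the gene as that table gives it (chromosome 8, 84976910 to 84978718). Its positions therefore count from a start farther upstream than the table's.
Fos: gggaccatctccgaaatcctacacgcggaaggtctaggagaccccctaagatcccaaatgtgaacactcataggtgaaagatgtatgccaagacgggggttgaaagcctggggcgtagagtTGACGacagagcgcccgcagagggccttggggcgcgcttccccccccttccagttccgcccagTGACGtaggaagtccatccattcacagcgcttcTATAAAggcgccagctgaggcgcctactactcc
Fosb: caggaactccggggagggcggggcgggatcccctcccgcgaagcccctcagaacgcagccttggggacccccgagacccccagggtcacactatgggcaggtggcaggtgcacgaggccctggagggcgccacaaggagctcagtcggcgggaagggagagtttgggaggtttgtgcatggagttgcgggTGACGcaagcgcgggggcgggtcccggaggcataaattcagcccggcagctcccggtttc
Junb: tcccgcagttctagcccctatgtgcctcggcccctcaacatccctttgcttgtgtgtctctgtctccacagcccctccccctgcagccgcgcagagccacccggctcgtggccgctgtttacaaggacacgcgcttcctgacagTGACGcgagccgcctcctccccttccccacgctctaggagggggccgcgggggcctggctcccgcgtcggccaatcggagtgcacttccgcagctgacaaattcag
Nr4a1: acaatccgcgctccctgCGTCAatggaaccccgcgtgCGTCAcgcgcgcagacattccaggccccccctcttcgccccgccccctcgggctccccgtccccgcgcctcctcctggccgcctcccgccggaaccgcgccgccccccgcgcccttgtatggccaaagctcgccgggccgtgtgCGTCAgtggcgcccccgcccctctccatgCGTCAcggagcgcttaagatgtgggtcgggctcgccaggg
Fos held TGACG at -129 to -125 and at -66 to -62, Fosb at -60 to -56 and Junb at -106 to -102. Nr4a1 held the reverse complement 4 times, starting at -233, -213, -69 and -40.

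Library totals ran from 54.7 M counts (M, 1e6 counts; NAC 2) to 90.7 M (NAC 4), with a median of 63.3 M. Levels are counts per M after TMM scaling (CPM), and FPKM, which also divides by length, is used to compare genes with each other. Of 7 skeletal muscle fibre markers all 7 were detected, with a summed level of 110436 to 161589 CPM. Transcripts of another tissue moved with the groups: the summed level of 7 neuron markers was 5.88 to 9.59 CPM in controls, 8.33 to 46.8 in TM, 5.96 to 66.4 with NAC alone and 52.3 to 69.98 in TM+NAC, and TM 1 and NAC 4 held the lowest sums of their groups. The summed level of 4 cartilage markers was 16.1 to 27.7 CPM in TM+NAC and 0.479 to 15.7 elsewhere. In bulk muscle, fewer cells of a type and less RNA per cell cannot be told apart.

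The members differed in level. In mean FPKM over the 20 libraries, Nr4a1 stood at 32.0, Fos at 18.7, Jun at 17.3, Egr1 at 8.79, Klf6 at 6.24, Junb at 5.94, Ier2 at 5.27, Klf4 at 4.24, Fosb at 2.196 and Atf3 at 1.85. Nr4a1 exceeded 91.4% of the tested genes on this scale, and Atf3 22.1%. Mean counts per library ran from 293 for Atf3 to 8220 for Nr4a1, and the lowest count of any member in any library was 119, so counting error was small beside the differences between libraries.

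**Figure D1:**
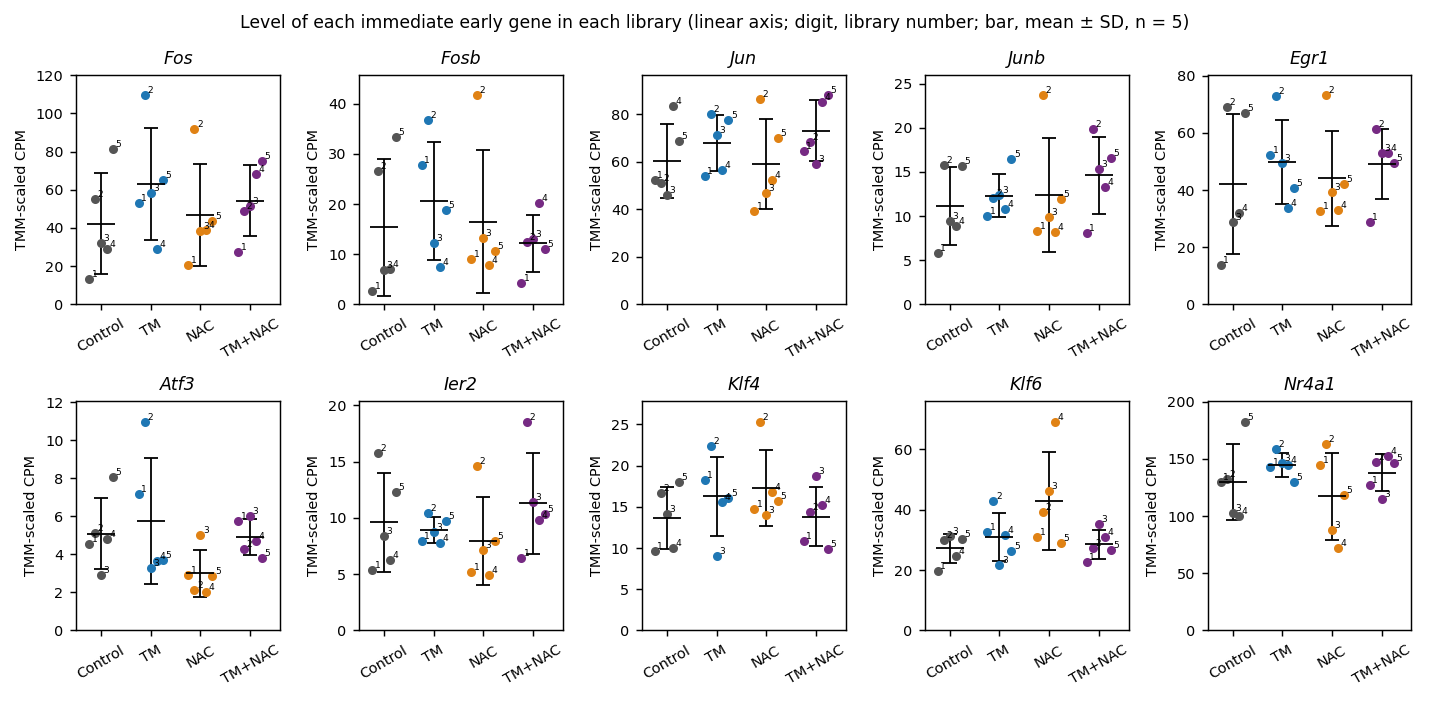
TMM-scaled CPM of each of the 10 members in every library of the 4 groups, on linear axes that start at 0. Digits give the library number and bars the mean ± SD of 5 libraries. For every member the libraries of any pair of groups overlap, and NAC 2 is the highest NAC library for 8 members, Klf6 and Atf3 being the others.

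Fos and Fosb, FOS-family partners of JUN proteins in the AP-1 transcription factor, varied most between libraries of a group. Fos stood at 13.3, 55.2, 32.1, 29.02 and 81.2 CPM in Control 1 to 5 and at 53.02, 109, 58.5, 28.96 and 65.2 CPM in TM 1 to 5. Its level was 20.6, 92.02, 38.3, 39.1 and 43.6 CPM in NAC 1 to 5 and 27.2, 49.002, 51.7, 68.2 and 75.1 CPM in TM+NAC 1 to 5. Control 1 was the lowest of all 20 libraries and TM 2 the highest, and the groups overlapped. The control libraries alone differed 6.08-fold. By group, mean Fos was 63.01 ± 29.3 in TM, 54.2 ± 18.7 in TM+NAC, 46.7 ± 26.8 in NAC and, lowest, 42.2 ± 26.4 in Control (CPM, ± SD, n = 5 each).

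TM libraries stood above controls in Fos by 0.58 ± 0.42 on the log2 scale (± SE, edgeR), with a 95% confidence interval of -0.30 to 1.46 and an adjusted p of 0.999. Of the 5 TM libraries 4 lay above the control mean. The log2 fold of TM+NAC over control was 0.36 ± 0.42 (-0.52 to 1.24), and that of NAC over control 0.15 ± 0.42 (-0.73 to 1.03). These comparisons share the control libraries. Leaving out single libraries moved TM over control to between 0.29 (without TM 2) and 0.97 (without Control 5). TM+NAC over control moved to between 0.14 (without Control 1) and 0.75 (without Control 5), and NAC over control to between -0.25 (without NAC 2) and 0.53 (without Control 5). No pair of groups next to each other in the order of means differed beyond the spread, and a p that misses the threshold does not show that the groups were alike.

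Fosb, encoded on another chromosome and like Fos an AP-1 subunit, stood at 2.56, 26.6, 6.93, 7.08 and 33.5 CPM in Control 1 to 5 and at 27.9, 36.8, 12.2, 7.36 and 18.9 CPM in TM 1 to 5. NAC 1 to 5 held 9.02, 41.7, 13.2, 7.76 and 10.7 CPM, and TM+NAC 1 to 5 held 4.16, 12.5, 12.97, 20.3 and 11.01 CPM. Control 1 was again the lowest library, and NAC 2, TM 2 and Control 5 were the highest. The control libraries differed 13.1-fold. Mean Fosb was 20.6 ± 11.9 in TM, 16.5 ± 14.2 in NAC, 15.3 ± 13.8 in Control and, lowest, 12.2 ± 5.74 in TM+NAC (CPM, ± SD, n = 5 each). TM+NAC gave the only mean below that of controls, with a log2 fold over TM of -0.76 ± 0.60 (-2.01 to 0.49, adjusted p = 0.939 by edgeR) and over control of -0.33 ± 0.60 (-1.58 to 0.92). The fold over TM was -0.45 without TM 2 and -1.02 without TM+NAC 4. That over control was -0.596 without Control 1 and turned positive, to 0.19, without Control 5.

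Jun and Junb, the JUN-family subunits that pair with FOS proteins or with each other, behaved differently in spread. Jun stood at 52.2, 51.1, 46.01, 83.5 and 68.7 CPM in Control 1 to 5 and at 53.9, 79.9, 71.4, 56.7 and 77.4 CPM in TM 1 to 5. With NAC, the 5 libraries stood at 39.3, 86.5, 46.8, 52.4 and 69.9 CPM, and with both compounds at 64.6, 68.2, 59.1, 85.2 and 87.95 CPM. The groups overlapped, and Jun varied less than Junb. The group means were 73.02 ± 12.8 in TM+NAC, 67.9 ± 11.9 in TM, 60.3 ± 15.5 in Control and, lowest, 58.96 ± 19.1 in NAC (CPM, ± SD, n = 5 each). All 5 TM+NAC libraries lay above the NAC mean, and the log2 fold of that comparison was 0.31 ± 0.20 (-0.10 to 0.72, adjusted p = 0.461 by edgeR). TM+NAC over control was 0.28 ± 0.20 (-0.13 to 0.69). The first of these was 0.19 without NAC 1 and 0.49 without NAC 2, and the other 0.43 without Control 4.

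Junb stood at 5.86, 15.8, 9.45, 8.85 and 15.7 CPM in Control 1 to 5 and at 10.05, 12.03, 12.4, 10.8 and 16.4 CPM in TM 1 to 5. The values were 8.297, 23.7, 9.91, 8.19 and 11.9 CPM in NAC 1 to 5 and 8.11, 19.9, 15.4, 13.3 and 16.6 CPM in TM+NAC 1 to 5. NAC 2 was the highest library and Control 1 the lowest, and the groups overlapped. The group means were 14.7 ± 4.37 in TM+NAC, 12.4 ± 6.49 in NAC, 12.3 ± 2.48 in TM and, lowest, 11.1 ± 4.43 in Control (CPM, ± SD, n = 5 each), and the log2 fold of TM+NAC over control, the largest of the 6 for Junb, was 0.39 ± 0.30 (-0.23 to 1.02, adjusted p = 0.997 by edgeR). It was 0.24 without Control 1.

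Egr1 (chromosome 18, 34859823 to 34864984, plus strand), a zinc finger transcription factor induced by growth factors and mechanical load, followed Fos and Fosb. Egr1 stood at 13.6, 69.1, 28.9, 31.98 and 66.8 CPM in Control 1 to 5 and at 52.4, 72.8, 49.5, 33.6 and 40.7 CPM in TM 1 to 5. Its level was 32.8, 73.1, 39.3, 33.1 and 42.03 CPM in NAC 1 to 5 and 28.9, 61.5, 53.1, 52.9 and 49.4 CPM in TM+NAC 1 to 5. Control 1 was the lowest of the 20 libraries, NAC 2, TM 2, Control 2 and Control 5 were the highest, and the groups overlapped. Mean Egr1 was 49.8 ± 14.8 in TM, 49.2 ± 12.2 in TM+NAC, 44.1 ± 16.7 in NAC and, lowest, 42.1 ± 24.6 in Control (CPM, ± SD, n = 5 each). Its 6 pairwise log2 folds lay between -0.18 and 0.24, with SEs of 0.34, and TM over control had an interval of -0.46 to 0.94. Without Control 1 this last fold was 0.03, and without Control 2 it was 0.4991.

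Ier2, a nuclear protein that rises early after growth factors, had a mean FPKM above that of 58.4% of the tested genes. It stood at 5.33, 15.8, 8.37, 6.23 and 12.3 CPM in Control 1 to 5 and at 7.98, 10.4, 8.77, 7.79 and 9.71 CPM in TM 1 to 5. With NAC, the 5 libraries stood at 5.18, 14.6, 7.16, 4.904 and 7.91 CPM, and with both compounds at 6.44, 18.5, 11.4, 9.78 and 10.3 CPM. TM+NAC 2 and Control 2 were the highest libraries, and the groups overlapped. The group means were 11.3 ± 4.46 in TM+NAC, 9.59 ± 4.37 in Control, 8.94 ± 1.13 in TM and, lowest, 7.95 ± 3.92 in NAC (CPM, ± SD, n = 5 each), and TM+NAC over NAC had a log2 fold of 0.51 ± 0.31 (-0.14 to 1.16, adjusted p = 0.451 by edgeR). This fold was 0.26 without TM+NAC 2 and 0.85 without NAC 2.

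Atf3, a stress-induced partner of AP-1 proteins, had the lowest level of the members. Atf3 stood at 4.54, 5.12, 2.93, 4.798 and 8.09 CPM in Control 1 to 5 and at 7.19, 10.97, 3.27, 3.64 and 3.71 CPM in TM 1 to 5. NAC 1 to 5 held 2.93, 2.15, 5.03, 1.997 and 2.88 CPM, and TM+NAC 1 to 5 held 5.77, 4.27, 5.996, 4.68 and 3.79 CPM. All NAC libraries but NAC 3 lay at 2.93 CPM or lower, about the level of the lowest control library, and the groups overlapped. The group means were 5.75 ± 3.32 in TM, 5.09 ± 1.87 in Control, 4.8999 ± 0.953 in TM+NAC and, lowest, 2.997 ± 1.21 in NAC (CPM, ± SD, n = 5 each). The log2 fold of NAC over control was -0.77 ± 0.33 (-1.45 to -0.08) and that of NAC over TM -0.94 ± 0.33 (-1.62 to -0.26). TM+NAC over NAC gave 0.71 ± 0.33 (0.03 to 1.39). None of the NAC libraries exceeded the mean of controls or of TM. The adjusted p of these comparisons, by edgeR over all genes, was 0.638, 0.889 and 0.41, so none passed. They share the NAC libraries, and without TM 2, the highest library, NAC over TM moved to -0.57.

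Klf4 and Klf6 are zinc finger factors of the Krüppel-like family, of which Klf4 acts in vessel wall and stem cells and Klf6 in tissue injury. Klf6 stood at 19.7, 29.9, 31.2, 24.8 and 30.3 CPM in Control 1 to 5 and at 32.6, 42.9, 21.5, 31.7 and 26.2 CPM in TM 1 to 5. Its level was 30.8, 39.2, 45.97, 69.04 and 28.9 CPM in NAC 1 to 5 and 22.6, 27.3, 35.3, 30.8 and 26.6 CPM in TM+NAC 1 to 5. NAC 4 stood far above every other library, and all 5 NAC libraries lay above the control mean, although NAC 1 and NAC 5 lay within the control range. The group means were 42.8 ± 16.2 in NAC, 30.99 ± 8.005 in TM, 28.5 ± 4.79 in TM+NAC and, lowest, 27.2 ± 4.88 in Control (CPM, ± SD, n = 5 each).

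NAC over control gave Klf6 a log2 fold of 0.65 ± 0.21 (0.22 to 1.09), with an edgeR p of 0.00551 before and 0.529 after adjustment over all genes. TM+NAC over NAC gave -0.58 ± 0.21 (-1.02 to -0.15, adjusted p = 0.409), and NAC over TM gave 0.47 ± 0.21 (0.03 to 0.90, adjusted p = 0.889). The interaction, the TM effect in the presence of NAC minus that in its absence, was -0.77 ± 0.30 (-1.39 to -0.15, adjusted p = 0.597). Leaving out NAC 4 moved the 4 values to 0.42, -0.34, 0.22 and -0.54. NAC 4 was also the most deeply sequenced library, the one with the highest share of mitochondrial counts (20.3%, against 13.1% in the lowest library) and with the highest summed level of 5 smooth muscle and pericyte markers (558 CPM, against 359 to 475 in the libraries of the other groups). In correlations given below, Klf6 gave r = 0.60 with library total, 0.54 with mitochondrial share and 0.65 with smooth muscle and pericyte markers. The permutation adjusted p was 0.0986, 0.133 and 0.0673, so none passed. Whether these measures account for the high Klf6 level of NAC 4 was not tested.

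Klf4 stood at 9.68, 16.6, 14.1, 10.05 and 17.97 CPM in Control 1 to 5 and at 18.2, 22.3, 9.04, 15.6 and 16.1 CPM in TM 1 to 5. The values were 14.7, 25.3, 14.04, 16.8 and 15.7 CPM in NAC 1 to 5 and 10.9, 14.3, 18.7, 15.3 and 9.84 CPM in TM+NAC 1 to 5. NAC 2 and TM 2 were the highest libraries, and the groups overlapped. Mean Klf4 was 17.3 ± 4.601 in NAC, 16.3 ± 4.84 in TM, 13.8 ± 3.55 in TM+NAC and, lowest, 13.7 ± 3.76 in Control (CPM, ± SD, n = 5 each), and the log2 fold of NAC over control was 0.34 ± 0.23 (-0.14 to 0.82, adjusted p = 0.654 by edgeR). Without NAC 2 it was 0.16.

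Nr4a1, an orphan nuclear receptor that in muscle is known to respond to beta-adrenergic signals and to act on glucose metabolism genes, had the highest level and the smallest spread. Nr4a1 stood at 130.2, 133, 103, 100.001 and 182 CPM in Control 1 to 5 and at 143, 159, 147, 144 and 129.6 CPM in TM 1 to 5. NAC 1 to 5 held 145, 163, 87.8, 72.1 and 118 CPM, and TM+NAC 1 to 5 held 127, 147, 115, 153 and 147 CPM. The TM libraries were close together, Control 5 was the highest and NAC 4 the lowest library, and the groups overlapped. Means were 144 ± 10.4 in TM, 138 ± 16.2 in TM+NAC, 129.6 ± 33.2 in Control and, lowest, 117 ± 37.9 in NAC (CPM, ± SD, n = 5 each). The largest of its 6 log2 folds in size was that of NAC over TM, -0.30 ± 0.18 (-0.68 to 0.08, adjusted p = 0.889 by edgeR), which was -0.17 without NAC 4.

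Counted over the members, 0 of 10 passed in TM against control, where 0% of the 9696 tested genes did. The count was also 0 of 10 in NAC against control (0.217% of genes), TM+NAC against control (0.351%), TM+NAC against TM (0.0309%), TM+NAC against NAC (0.0309%), NAC against TM (0%) and the interaction (0.0103%). A count of 0 of 10 is no lower than these shares over all genes would give. At an unadjusted edgeR p under 0.05 the members numbered 0 in TM against control (3.37% of genes), 2 in NAC against control (7.44%), 0 in TM+NAC against control (6.38%), 0 in TM+NAC against TM (5.19%), 2 in TM+NAC against NAC (11.9%), 2 in NAC against TM (5.18%) and 1 in the interaction (7.28%). These were Klf6 and Atf3, and in the interaction Klf6. DESeq2 also called 0 of 10 in each comparison, with a lowest adjusted p of 0.209, for Klf6 in NAC against control.

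Groups without overlap were found for 0 of the 10 members in TM against control (0.443% of tested genes), NAC against control (0.598%), TM+NAC against control (2.2%), TM+NAC against TM (1.8%), TM+NAC against NAC (2.63%) and NAC against TM (0.66%). The sign of the log2 fold was positive for 9 of 10 members in TM against control, with a median of 0.18 beside -0.00054 over all tested genes, of which 49.8% were positive. In NAC against control 6 were positive (median 0.08), and in TM+NAC against control 8 (0.16). In TM+NAC against TM 3 were positive (median -0.09), in TM+NAC against NAC 7 (0.22), in NAC against TM 3 (-0.19) and in the interaction 5 (-0.0035). Members moved together between libraries, so these counts are not 10 separate observations.

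**Figure D2:**
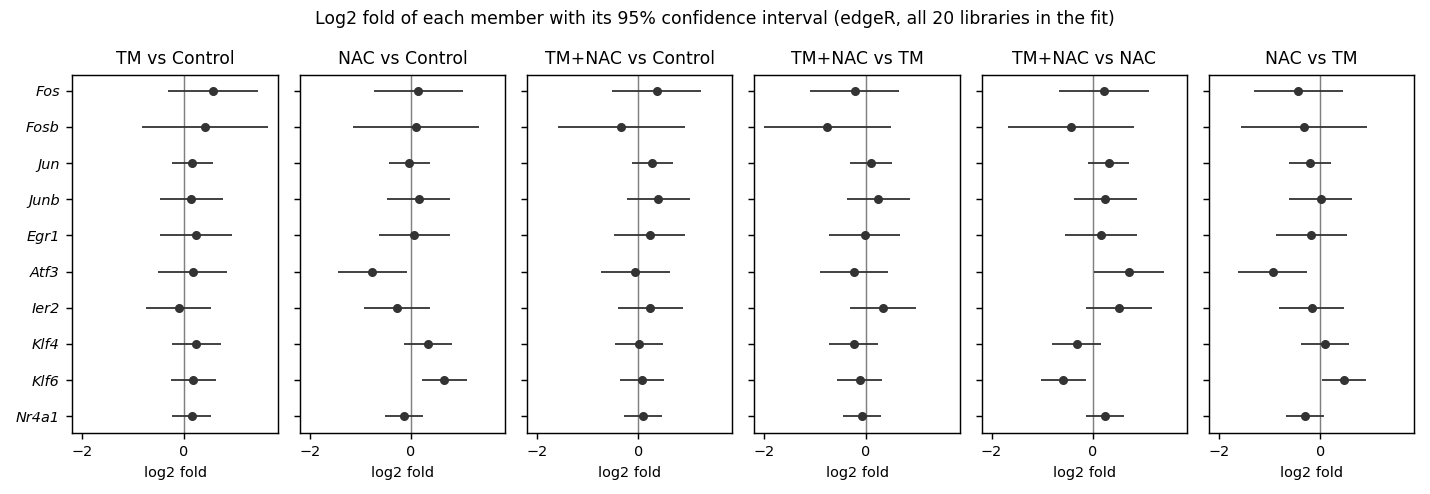
Log2 fold of each member in the 6 pairwise comparisons, with points for the estimate and lines for the 95% confidence interval of the edgeR fit on all 20 libraries. Most intervals hold 0; those of Klf6 and Atf3 do not in NAC against control, TM+NAC against NAC and NAC against TM, and none of these passed after adjustment.

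What the libraries of a group did not share was large for these genes. The SD of log2 CPM within groups was 1.1 for Fosb, 0.77 for Fos, 0.62 for Egr1, 0.55 for Atf3, 0.54 for Ier2, 0.52 for Junb, 0.41 for Klf4, 0.36 for Klf6, 0.34 for Jun and 0.32 for Nr4a1. The median over all tested genes was 0.19. Fosb varied more than 99.2% of the tested genes, and Nr4a1, the steadiest member, more than 84.0%. Among genes within 0.5 log2 CPM of its own level, each member exceeded 91.7% (Atf3) to 99.8% (Fosb). The median SE of a pairwise log2 fold was 0.30 for the members and 0.12 for all tested genes.

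**Figure D3:**
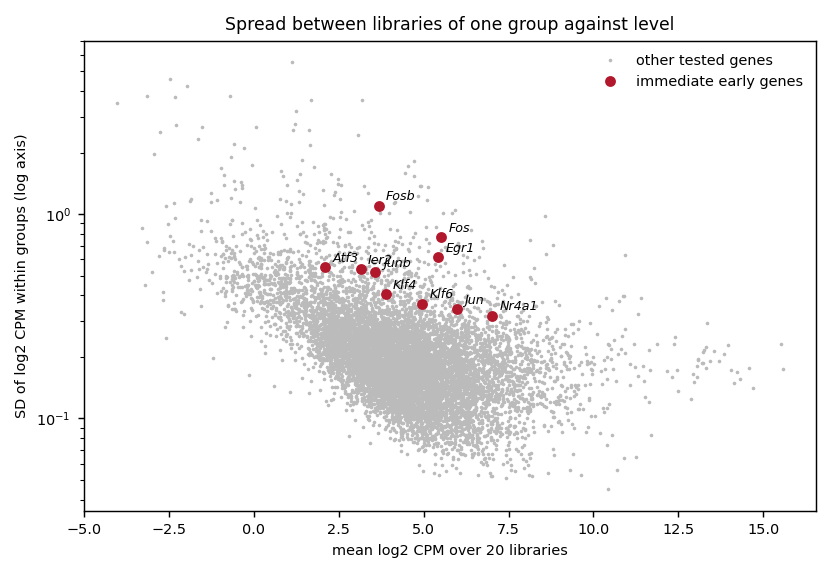
SD of log2 CPM within the 4 groups (log axis) against mean log2 CPM over 20 libraries for each of the 9696 tested genes, with the 10 members marked in red. The members lie high in the cloud for their level, from 0.32 for Nr4a1 to 1.1 for Fosb. Each exceeds 91.7% (Atf3) to 99.8% (Fosb) of the genes within 0.5 log2 CPM of its own level.

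The spread was shared between members. After the mean of its group was subtracted from each library's log2 CPM, 41 of the 45 pairs of members were positively correlated over the 20 libraries, with a median Pearson r of 0.40. In a permutation test with 100000 resamples, 17 pairs had an adjusted p under 0.05 over the 45, all of them positive, and 17 pairs did so by Spearman's rho. The same counts were not taken over pairs of other tested genes, so they do not show a trait particular to the members. Fosb and Egr1 gave r = 0.94 (rho = 0.94) and Junb and Ier2 r = 0.94 (rho = 0.93). For both pairs the permutation p was 1e-05, the smallest the resamples can give, and the adjusted p 7.5e-05. Without the 2 libraries farthest from the median of the first gene, r was 0.92 and 0.91. The group means removed before testing leave the 20 values not wholly independent, so these p-values are somewhat too small.

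Fos, Fosb, Egr1, Junb and Ier2, a set picked after their values were seen, gave the 10 highest correlations, from 0.75 to 0.94. Without the 2 farthest libraries the lowest of the 10 was 0.70. Within single groups of 5 libraries, 39 of the 40 values were positive and the lowest was -0.12. Fos and Fosb had an r of 0.98 in Control, 0.85 in both TM and TM+NAC, and 0.84 in NAC. Control 1 and TM+NAC 1 were low together, with Fos at -1.41 and -0.91 and Fosb at -1.99 and -1.38 from the group mean (log2). Control 5 and NAC 2 were high together, with Fos at 1.20 and 1.15 and Fosb at 1.71 and 1.65.

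**Figure D4:**
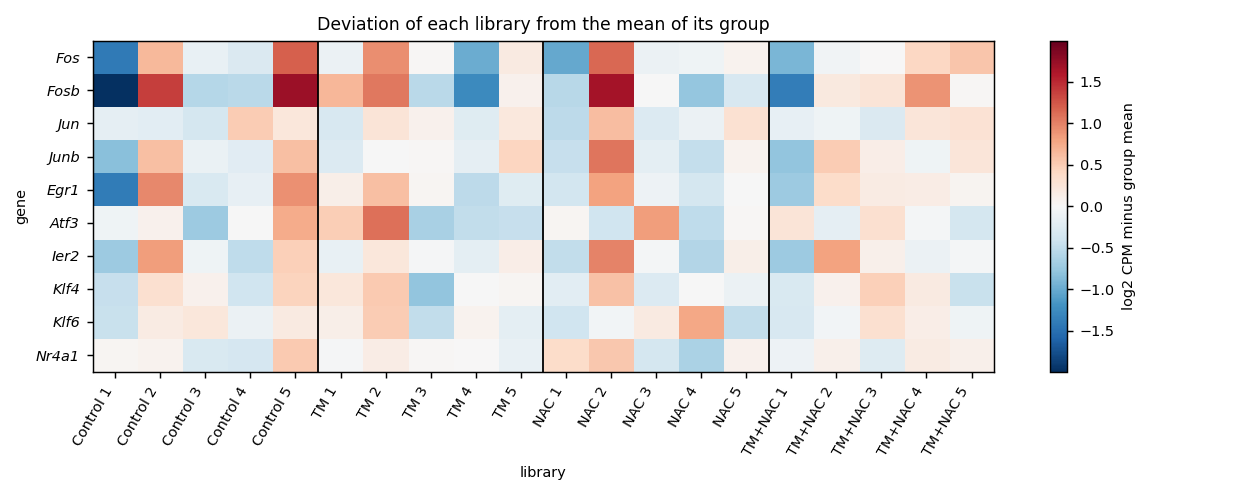
Log2 CPM of each member in each library minus the mean of that library's group, from blue (below the mean) to red (above), with black lines between the groups. Control 1 and TM+NAC 1 are blue and Control 5 and NAC 2 red for Fos, Fosb, Junb, Egr1 and Ier2, while Klf6 is highest in NAC 4.

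Klf4 correlated with Fosb (r = 0.73, permutation adjusted p = 0.00119), Egr1 (0.64, 0.00776), Ier2 (0.61, 0.0148), Klf6 (0.60, 0.0163), Fos (0.58, 0.0183) and Junb (0.54, 0.0377). Jun correlated with Fos (r = 0.60, permutation adjusted p = 0.0160). No pair that holds Nr4a1 or Atf3 had an adjusted p under 0.05, and the lowest r of all was -0.36, between Klf6 and Nr4a1. Atf3 and Jun gave an r of -0.05 although both are AP-1 proteins.

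**Figure D5:**
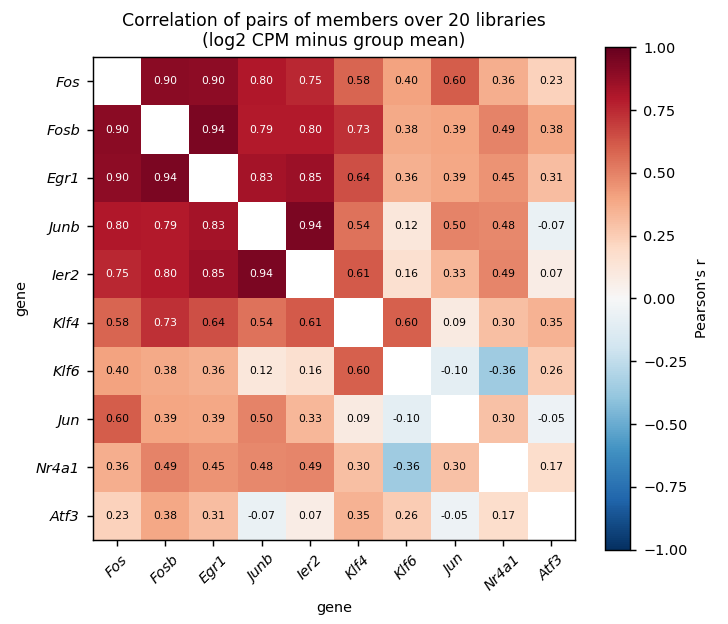
Pearson correlation of each pair of members over 20 libraries after subtraction of group means, with the value printed in each cell. Fos, Fosb, Egr1, Junb and Ier2 form a block of 0.75 to 0.94, and Klf6, Jun, Nr4a1 and Atf3 stand mostly apart from it.

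Other tested genes followed the same libraries. By the same measure over 20 libraries, the 5 most like Fos were Btg2 (r = 0.91), a growth arrest gene, Zfp36 (0.84), whose protein binds AU-rich elements and speeds RNA decay, Dusp1 (0.84), a phosphatase that shuts off MAP kinases, Ccn1 (0.82), a secreted matrix protein, and Otud1 (0.80), a deubiquitinase. The 5 most like the mean of the members were Btg2 (0.93), Zfp36 (0.93), Ccn1 (0.87), Dusp1 (0.86) and Spry1 (0.80), an inhibitor of receptor tyrosine kinase signals. Btg2 and Ccn1 are on the list of other immediate early genes read below, and Zfp36 and Dusp1 on that of feedback inhibitors. Otud1 and Spry1 are on none of the lists. Mean Btg2 was 26.3 ± 11.8 CPM in Control, 29.997 ± 13.2 in TM, 27.8 ± 8.09 with NAC alone and 36.997 ± 11.3 in TM+NAC (SD, n = 5 each). All of these points share library, depth and composition.

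Measures of the libraries were set against 4 members, Fos, Klf6, Atf3 and Nr4a1, in 68 relations over 20 libraries, and no permutation p reached 0.05 after adjustment. Fos gave r = 0.11 with the summed neuron markers, -0.05 with the library total, 0.29 with the mitochondrial share and -0.48 with muscle fibre markers (adjusted p = 0.851, 0.926, 0.419 and 0.174, permutation). For the first 3 of these measures Klf6 gave -0.52, 0.60 and 0.54 (permutation adjusted p = 0.133, 0.0986 and 0.133). Nr4a1 gave 0.51, -0.54 and -0.37 (0.157, 0.133 and 0.303), and Atf3 0.05, -0.02 and 0.24 (0.926, 0.978 and 0.535). Without the 2 libraries farthest from the median of the measure, r with the library total was positive for all 4 members. It was 0.41 for Fos, 0.47 for Klf6, 0.34 for Atf3 and 0.23 for Nr4a1. With the neuron markers it was 0.18, -0.19, 0.006 and 0.32 in the same order. The lowest adjusted p was 0.0673, for Klf6 with smooth muscle and pericyte markers (r = 0.65, rho = 0.60) and with heat shock genes (r = 0.63, rho = 0.55), and for Nr4a1 with blood markers (r = 0.65, rho = 0.52). Without the 2 farthest libraries these were 0.54, 0.62 and 0.42.

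Other genes of the pathway were read from the same fit, and each gene named here had the smallest p of its list in that direction and comparison. No gene of the lists passed apart from Hmox1. Of 27 kinases and transcription factors upstream, among them serum response factor and its partners, CREB and its coactivators and the MAP kinases, 26 were tested and none passed in any comparison. In TM against control, 15 of the 26 log2 folds were positive (median 0.02), with Crem, a CREB-family factor, at 0.20 ± 0.13 (± SE) and Map2k7, a JNK kinase, at -0.07 ± 0.06. In TM+NAC against NAC, Mef2c, a muscle transcription factor, stood at -0.44 ± 0.16. Its interaction was -0.60 ± 0.22.

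Of 12 other AP-1 and bZIP partners 7 were tested and none passed. In TM against control 4 of the 7 log2 folds were positive, with Fosl2, a further FOS-family subunit, at 0.20 ± 0.13. In TM+NAC against NAC, Atf2, a bZIP partner of JUN, stood at -0.35 ± 0.11. Among 11 other EGR, NR4A and KLF factors 3 were tested, Nab1, Klf2 and Klf10, and none passed. In that comparison Nab1, a corepressor of EGR proteins, stood at -0.48 ± 0.18.

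Of 32 other immediate early genes 25 were tested and none passed. In TM against control 15 of the 25 log2 folds were positive (median 0.04), with Pim1, a survival kinase, at 0.36 ± 0.17 and Gadd45a, a growth arrest gene, at -0.27 ± 0.15. In NAC against control 17 were positive (median 0.06). There Sgk1, a kinase also induced by glucocorticoids, stood at 0.62 ± 0.15 and Hes1, a Notch target, at -0.41 ± 0.18. Per1, a clock gene, stood at 0.97 ± 0.26 in NAC against TM, and Ccn2, a matrix protein, at 0.64 ± 0.20 in TM+NAC against control.

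Of 14 feedback inhibitors 11 were tested and none passed. Spry4, an inhibitor of receptor tyrosine kinase signals, gave -0.53 ± 0.13 in NAC against control and Spred1, of the same wider family, 0.41 ± 0.11. All 7 heat shock genes and all 8 glucocorticoid-responsive genes were tested and none passed. Hsp90aa1, a chaperone, stood at 0.39 ± 0.14 in TM against control, and Ddit4, a stress-induced inhibitor of mTOR, at 0.81 ± 0.37 in TM+NAC against control. Mean Ddit4 was 10.2 ± 4.98 CPM with NAC alone, 9.14 ± 3.72 in TM+NAC, 5.196 ± 1.31 in Control and 4.89 ± 2.23 in TM (SD, n = 5 each). Of 8 copper and antioxidant genes, Hmox1, which encodes a heme oxygenase, passed in TM+NAC against control and in no other comparison, and the other 7 passed in none. Mean Hmox1 was 5.82 ± 1.11 CPM in Control, 6.81 ± 0.672 in TM, 5.69 ± 0.577 with NAC alone and 8.89 ± 1.11 in TM+NAC (SD, n = 5 each). Its log2 fold in TM+NAC against control was 0.61 ± 0.13 (edgeR adjusted p = 0.0302), and it did not pass in 8 of the 31 other settings that tested it, 7 of which left out a single library. Without TM+NAC 5 the adjusted p was 0.140. The cartilage markers given above were higher in every TM+NAC library than in any other library, and the neuron markers were higher in TM+NAC than in controls. The part of either in this call was not tested.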

How the data were processed

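RNA-seq of 20 mouse gastrocnemius libraries was analysed, in 4 groups of 5 taken from the treatment label. Per the file headers, the authors deposited a table of 31618 genes with a count and an FPKM value per library, and the deposited counts are whole numbers without normalization. The FPKM values in the deposited table are normalized for length and library size. Tools named in the submitters' processing notes are cutadapt 1.9, FastQC, HISAT2 2.2.1 and StringTie, with the build GRCm38. The kit marked strand, per the labels' protocols, but the counter, its strand setting and its annotation were not given in these sources.

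The 9696 genes averaging an FPKM of 1 or more were fitted with edgeR 4.0.16 (R 4.3.3) in a quasi-likelihood model of the 4 groups with TMM scaling, two-sided, with Benjamini-Hochberg adjustment over all tested genes and a threshold of 0.05. Dividing the log2 fold by the root of the F statistic gave its SE. The test was tested on simulated data. Alternatives were median-ratio scaling, no TMM, no filter, a minimum FPKM of 5, only the groups compared, a replicate block, a robust fit, limma 3.58.1 on log2(FPKM + 1) and log2(FPKM + 0.1), voom with library weights, DESeq2 1.42.0, leaving out TM 1 and NAC 4, and leaving out each library in turn. Correlations used log2 CPM with a prior count of 1 minus group means. Gene positions and 3′ UTRs came from GENCODE M21, and 8 of the 10 members have the same position there as in the table.

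The members and lists were chosen with earlier results of these data known. All 10 members are reported in every comparison. Listed genes were to be named where they passed, or by the smallest p in each direction, and which of the latter are shown was chosen after their values were seen. No library pair within a group agreed within sampling noise (lowest chi-square per degree of freedom 22.9).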

Additional observations from a re-analysis of the deposited data

Results flagged for a closer look

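For 4 of the 40 pairs of member and group, Dixon's test on linear CPM (95% level) set 1 library far from the other 4. Chance alone marks about 1 in 20 such groups, provided that the values are normally distributed. The test was not run on log2 CPM, the scale of the folds and correlations. High values lie closer to the rest on that scale, so the flags describe linear CPM only. All 4 were the library NAC 2, the one with the lowest total count, as the highest of the NAC group. Fosb stood at 41.7 CPM there, with the next NAC library at 13.2 CPM. Egr1 stood at 73.1 CPM, with the next at 42.0. Junb was at 23.7 CPM, beside 11.9 in the next library, and Klf4 at 25.3 CPM, beside 16.8. These members moved together between libraries, so the 4 values are not separate observations. Without NAC 2, no member passed in any comparison.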

How the results depend on the processing

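No member passed in any comparison under any of the 32 other settings that tested it, 20 of which left out a single library. A mean FPKM of at least 5 left Fosb, Atf3 and Klf4 untested, and fitting only the groups compared gave no interaction. The lowest adjusted p was 0.209 (DESeq2, Klf6, NAC against control). Of 2209 member values, 90 changed sign, none of them a call, in 28 of 70 member comparisons, with log2 folds of up to 0.43 in size. The count of all genes that passed was 0 for TM, 21 for NAC and 34 for TM+NAC against control, 3 for TM+NAC against TM, 3 against NAC, 0 for NAC against TM and 1 for the interaction. In that order, leaving out 1 library gave 0 to 22, 4 to 41, 21 to 57, 3 to 6, 3 to 4, 0 to 1 and 0 to 7; the highest values for the 3 comparisons with control and the interaction came without NAC 4. Without TM 1 and NAC 4 the counts were 30, 45 and 64 against control, 7 for TM+NAC against TM and 23 for the interaction. Without a filter they were 197, 439 and 566 against control, 21, 13 and, for the interaction, 7. With a mean FPKM of at least 5 they were 2 for TM against control and 0 for NAC and for TM+NAC against control, TM+NAC against TM and against NAC, and the interaction. DESeq2 gave 19, 38, 77, 19, 8, 3 and 9, and voom 2, 34, 66, 10 and 5, with 6 for the interaction. Limma on log2(FPKM + 1) gave 1 and 2 for TM and NAC against control, 6 and 6 for TM+NAC against TM and NAC, and 3 for the interaction; with 0.1 the first 4 were 1, 3, 6 and 5. Fitting only the groups compared gave 2, 0 and 57 against control and 9 for TM+NAC against TM, and the robust fit 0 for the interaction. The cause of these shifts was not tested. Other counts stayed within 1.5 times the first ones.

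Equal replicate numbers gave no clear pairing of the libraries, though the values cannot exclude a weak one. Deviations of same-numbered libraries correlated at -0.26 to 0.37 (median 0.05, against -0.012 for other numbers), over 0.1 in 11 of 30 pairs. A library matched its own number best, among the 5 libraries of another group, in 17 of 60 cases. With the number as a replicate block, 10 genes passed in NAC against control and 0 in the interaction, and 0 of 10 members in each comparison. Dropping TMM moved the median of all genes by up to 0.08 (log2).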
